A study of Mus musculus with 20 samples.

Results

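The machinery of autophagy and mitophagy was followed in old mouse hearts through a list of 42 genes, from the kinases that start an autophagosome to the receptors that deliver mitochondria to it. The genes were taken by name from the table of 34291 rows: 41 of them have a row, Atg4a is split over 2 rows by locus, and Atg14 is not analysed here. All 42 rows passed the filter on low counts. RNA came from whole hearts of C57BL/6 mice aged 27 months, 10 fed 14 ppm rapamycin for 3 months from an age of 24 months and 10 fed a control diet over the same time. The labels name no transgene or deletion, and every library is 1 heart. By its title, the study asked about rapamycin started late in life and the ageing heart.

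Autophagy encloses part of the cytoplasm in a growing membrane, the phagophore, which closes into an autophagosome and fuses with a lysosome. A kinase complex around ULK1 starts the process, a lipid kinase complex around Beclin-1 marks the membrane, and a conjugation system attaches small ubiquitin-like proteins of the ATG8 family to it. Receptors tie cargo to these proteins, and mitophagy is the same route taken by damaged or surplus mitochondria, on which heart muscle depends heavily. The kinase mTOR, which rapamycin inhibits, restrains the ULK1 complex and keeps the transcription factor TFEB out of the nucleus, and both controls act on proteins, which transcript counts do not show.

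The libraries summed to 8525162 to 12458309 counts with rapamycin and 7039514 to 10594335 in controls. Control 19 stood apart: it held 28000 summed CPM of 5 genes of lung epithelium, against a median of 1.43 with rapamycin and 1.72 in controls. Smaller sums stood out in rapamycin 15 (144), control 1 (407) and control 20 (74.3). The 14 cardiomyocyte markers, all detected, summed to 68600 to 83900 CPM with rapamycin and 30900 to 83400 in controls, where control 19 was the lowest and the other 9 lay at 65000 or above. The 14 macrophage markers, all detected, summed to 533 to 1160 CPM with rapamycin and 845 to 4420 in controls (845 to 1630 without control 19). In whole tissue, fewer cells of a type and less RNA per cell cannot be told apart. The 20 most abundant genes took a median of 33.1% of counts with rapamycin and 29.2% in controls. Fold changes are therefore given with TMM factors, which scale libraries by the bulk of their genes, and a value that a gene stood at is its log2 fold change, rapamycin over control, ± SE. CPM is a gene's count per total of its library, and normalised CPM has that total scaled by the factor. Values of single genes given as CPM below are normalised CPM, also where the word normalised is left out. Summed CPM of marker genes and the CPM of the authors' table are unscaled. Control 19 had the highest factor of the 20 libraries, 1.225, which lowers its normalised CPM. Where it is named as the lowest or highest heart, this holds with TMM and was not tested with library totals alone. With library totals alone the median log2 fold change of all genes was -0.13, against -0.01 with TMM, and the members' median was -0.09, against 0.03 with TMM.

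Transcripts of the autophagy machinery differed little between the diets. Of the 42 rows 1 rose, the kinase gene Ulk2, and none fell. A call meant an adjusted p below 0.05 in edgeR's quasi-likelihood test, with Benjamini-Hochberg adjustment over all 13940 genes tested. That rule called 3.36% of all genes, 0.689% upward and 2.68% downward. At an unadjusted p under 0.05, 6 members lay higher and 2 lower with rapamycin, where 21.7% of all genes passed, 8.21% higher and 13.5% lower. The members' median log2 fold change was 0.03, with 24 above 0 and 18 below (9 and 33 with library totals alone), against a median of -0.01 and 47.5% above 0 over all genes (19.1% with library totals alone). The groups overlapped for every member, while they did not overlap for 0.0717% of all genes. The 95% interval of the fold change lay within 1.25-fold in either direction for 31 of the 42 rows, and within 1.5-fold for 41, the exception being the mitophagy kinase gene Pink1. Without control 19 the counts were 36 and 42, and no member was called, where 3.38% of all genes were. DESeq2 called 2 members higher, Ulk2 and Pink1, where it called 2.02% of all genes higher.

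**Figure D1:**
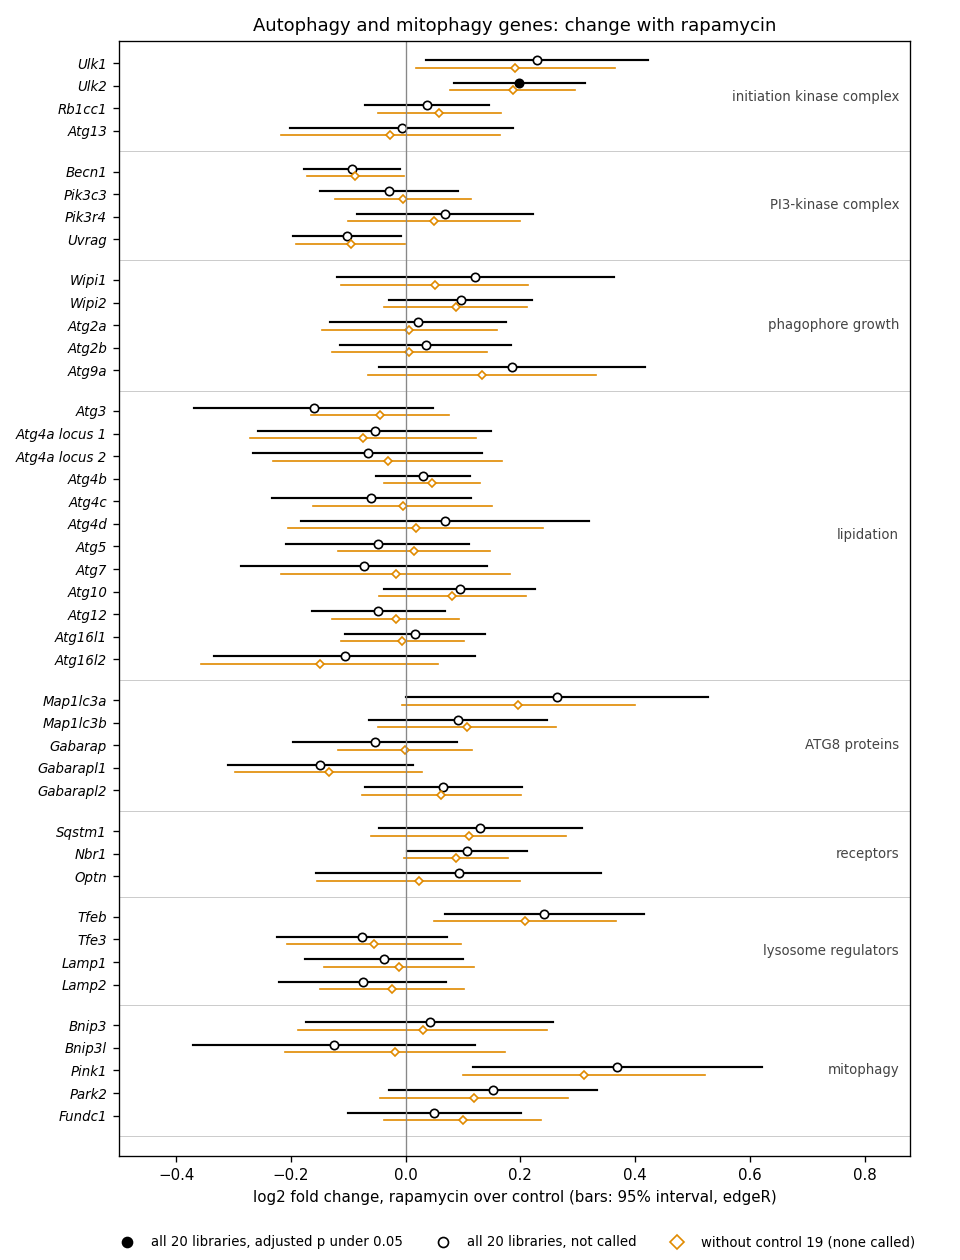
Log2 fold change of rapamycin over control for the 42 rows by step (x axis), with 95% intervals from edgeR; circles are fits of all 20 libraries (filled where the adjusted p was under 0.05) and diamonds fits without control 19. Ulk2 has the one filled circle, and Pink1 lies furthest to the right at 0.37. With library totals alone all points lie further to the left and several cross 0.

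The members spanned a wide range of levels, compared here as normalised CPM per kilobase of exon. Map1lc3a, which encodes an LC3 protein of the ATG8 family, had the highest median, 249 with rapamycin and 207 in controls. It was followed with rapamycin by Pink1 (212 with rapamycin, 166 in controls), by the lysosomal membrane glycoprotein gene Lamp1 (200.0 and 205), by Gabarap of the ATG8 family (133 and 131) and by the cargo receptor gene Sqstm1 (118 and 111). The lowest were Atg16l2, a relative of the lipidation scaffold gene Atg16l1, at 1.62 with rapamycin and 1.86 in controls, and the protease gene Atg4c at 2.87 and 2.95. The 10 lipidation genes with a length reached at most 16.7 with rapamycin and 17.1 in controls, both for Atg3, while the ATG8 genes spanned 14.5 to 249 with rapamycin and 13.3 to 207 in controls. Lengths are those of GENCODE exons on GRCm38, another build than the authors' MGSCv37, so these levels are approximate.

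**Figure D2:**
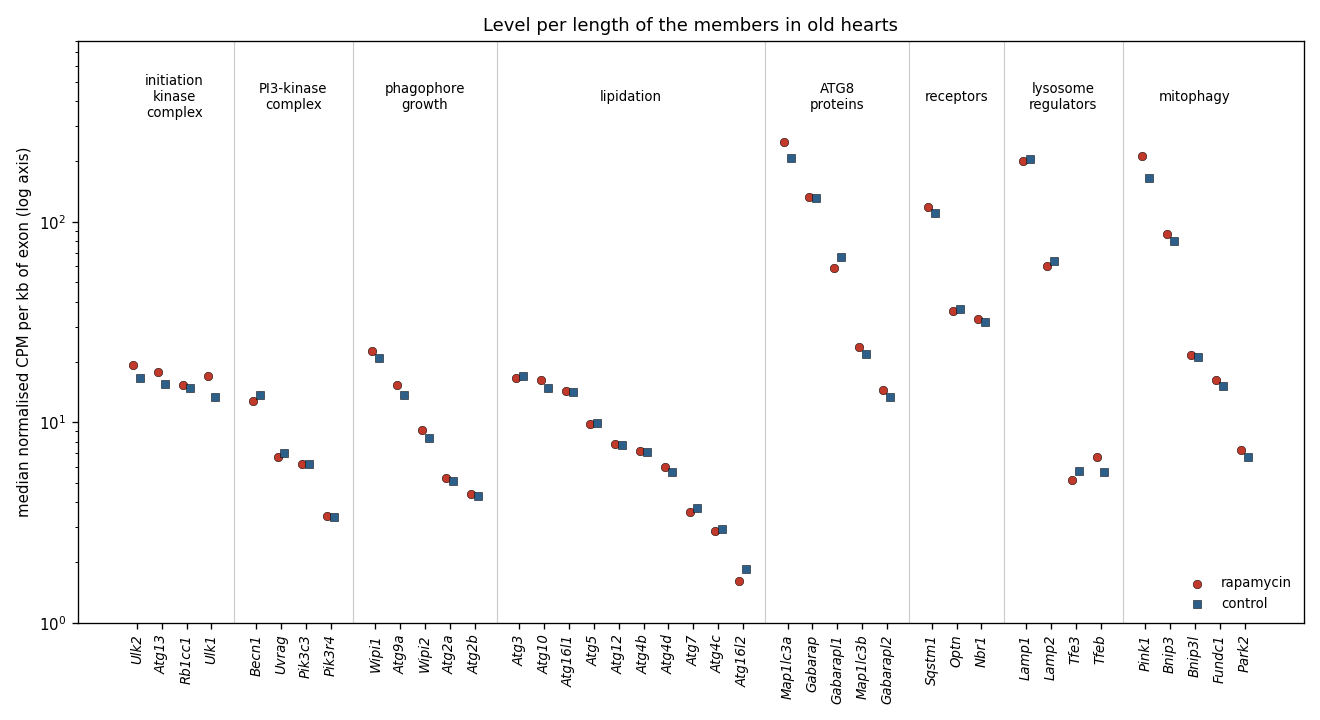
Median normalised CPM per kilobase of exon (log axis) of 40 members, ordered within each step, in rapamycin hearts (circles, left) and control hearts (squares, right; 10 hearts each). The 2 marks of a gene lie close together beside the spread between genes, from Atg16l2 at 1.62 and 1.86 to Map1lc3a at 249 and 207.

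Among the 4 genes of the initiation kinase complex, Ulk2 rose and the others did not pass. Ulk2, one of a pair of related kinases that start autophagosome formation, had 92.2, 110.5 and 120.4 normalised CPM as its lowest, median and highest value with rapamycin, against 85.3, 95.5 and 110.1 in controls. The groups overlapped, but 9 of 10 rapamycin hearts lay above the control median and 5 above every control. Its mean was 110.3 ± 8.42 CPM with rapamycin and 96.1 ± 7.54 in controls (SD, n = 10 each), and its log2 fold change was 0.20 with an SE of 0.05 (adjusted p = 0.0477 by edgeR). This is a fold of 1.15 with a 95% interval of 1.06 to 1.24. The call lay at the threshold: it held in 6 of 20 fits with a single library removed (adjusted p from 0.0158 to 0.0866 by edgeR), and without control 19 the adjusted p was 0.0525 at a value of 0.19. Library totals alone gave 0.07 (adjusted p = 0.262 by edgeR). Ulk2 is the only member among the 700 genes of the authors' deposited table, in which its unscaled CPM averaged 105 with rapamycin and 99.6 in controls.

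Ulk1, the better known kinase of the pair, spanned 69.8 to 95.8 CPM with rapamycin (median 89.0) and 52.9 to 89.7 in controls (median 70.1). The rapamycin hearts were packed toward the top of the range and 9 of 10 exceeded the control median, while control 19 was the lowest of all. Ulk1 averaged 85.1 ± 9.57 CPM with rapamycin and 72.6 ± 12.9 in controls (SD). Its value of 0.23 ± 0.09 did not pass (adjusted p = 0.157 by edgeR, or 0.206 at 0.19 without control 19). Rb1cc1, the scaffold FIP200 of the complex, stood at 0.04 ± 0.05, and Atg13, its regulatory subunit, at -0.01 ± 0.09. Atg13 changed sign in 8 of 20 fits with a library removed. The step's median was 0.12, with 3 of 4 above 0 (2 of 4 with library totals alone).

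The promoter windows of Ulk2, the one member called, and Pink1, the one with the largest value, are shown here from RefSeq (GRCm38.p6), from 250 bases before the gene's start to 50 after it, on the gene's strand. Beside them stand those of Lamp1 and Atg3, the members with the most matches to the letters CACGTG, an E-box core that TFEB and TFE3 read, and with the only match to TCACGTGA, the core of the CLEAR element of lysosomal genes. Matches are in capitals.
Ulk2, chr11:61855043-61855342, minus strand: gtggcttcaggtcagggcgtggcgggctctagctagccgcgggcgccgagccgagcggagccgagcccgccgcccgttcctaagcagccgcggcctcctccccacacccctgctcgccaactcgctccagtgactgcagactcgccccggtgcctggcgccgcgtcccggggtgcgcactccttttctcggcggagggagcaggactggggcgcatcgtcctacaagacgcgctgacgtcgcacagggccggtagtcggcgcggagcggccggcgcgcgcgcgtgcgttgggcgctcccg
Pink1, chr4:138326247-138326546, minus strand: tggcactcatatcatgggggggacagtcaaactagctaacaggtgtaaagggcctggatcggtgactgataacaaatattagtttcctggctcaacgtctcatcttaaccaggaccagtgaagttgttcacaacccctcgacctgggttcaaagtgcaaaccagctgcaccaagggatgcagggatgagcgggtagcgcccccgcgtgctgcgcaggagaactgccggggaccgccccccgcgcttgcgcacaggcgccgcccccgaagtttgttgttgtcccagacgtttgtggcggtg
Lamp1, chr8:13158911-13159210, plus strand: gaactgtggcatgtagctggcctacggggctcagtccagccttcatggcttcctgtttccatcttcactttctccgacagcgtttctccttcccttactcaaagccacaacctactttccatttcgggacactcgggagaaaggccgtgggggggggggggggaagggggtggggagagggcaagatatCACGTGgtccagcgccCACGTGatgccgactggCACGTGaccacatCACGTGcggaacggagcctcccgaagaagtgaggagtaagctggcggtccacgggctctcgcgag
Atg3, chr16:45158579-45158878, plus strand: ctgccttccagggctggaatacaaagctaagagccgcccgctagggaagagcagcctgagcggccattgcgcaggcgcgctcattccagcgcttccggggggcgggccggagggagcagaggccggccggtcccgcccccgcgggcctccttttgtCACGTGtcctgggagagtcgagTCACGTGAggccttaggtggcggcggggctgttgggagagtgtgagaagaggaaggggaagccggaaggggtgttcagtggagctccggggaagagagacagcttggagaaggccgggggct
Of the 42 members 34 have a window in that table. CACGTG, which reads the same on both strands, occurred in 6 of them (17.6%: Atg14, Atg3, Atg5, Atg7, Bnip3 and Lamp1), against 8.09% of all 27025 genes with a window. TCACGTGA, which contains it, occurred in 1 (2.94%), against 1.12% of all genes. The forkhead core GTAAACA, searched on both strands, occurred in none, against 4.05% of all genes. The windows of Ulk2 and Pink1 hold none of the 3 motifs. Lamp1 holds CACGTG 4 times, the copies beginning 61, 45, 28 and 15 bases before the start, and stood at a log2 fold change of -0.04 ± 0.07. Atg3 holds it 2 times, 94 and 71 bases before the start, and stood at -0.16 ± 0.10. These matches are letters in a short window and no measure of binding.

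In the lipid kinase complex no gene passed. The complex makes the lipid that marks the growing membrane: Pik3c3 encodes its catalytic subunit, Pik3r4 its regulatory subunit, and Becn1 and Uvrag encode its partners Beclin-1 and UVRAG. Uvrag had 29.6, 34.5 and 37.1 CPM as lowest, median and highest value with rapamycin, against 34.9, 36.3 and 39.8 in controls, and 6 of 10 rapamycin hearts lay below every control. Becn1 had 57.5, 60.5 and 65.8 CPM with rapamycin, against 58.8, 64.4 and 70.4 in controls. Becn1 averaged 60.6 ± 2.35 CPM with rapamycin and 64.7 ± 3.45 in controls (SD). Both varied little, with coefficients of variation of 3.87% to 7.14% in either group. Uvrag stood at -0.10 ± 0.04 (adjusted p = 0.189 by edgeR) and Becn1 at -0.09 ± 0.04 (adjusted p = 0.183). Their 95% intervals ended at folds of 0.873 and 0.884 below and at 0.994 above. Both were called lower with library totals alone, where 9.21% of all genes were: Uvrag at -0.23 (adjusted p = 0.03498 by edgeR) and Becn1 at -0.22 (0.01501). Pik3c3 stood at -0.03 ± 0.06 and Pik3r4 at 0.07 ± 0.07, and the step's median was -0.06.

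The 5 genes of phagophore growth all had values above 0 with TMM, and 2 of 5 did with library totals alone, with none called on either scaling. Their median was 0.10, or 0.05 without control 19. Atg9a, a membrane protein that seeds the phagophore, had the smallest p of the step. It had 46.6, 67.4 and 75.8 CPM as lowest, median and highest value with rapamycin, against 36.4, 59.8 and 71.4 in controls. Atg9a averaged 65.3 ± 9.51 CPM with rapamycin and 57.3 ± 11.4 in controls (SD). Its value was 0.19 ± 0.11 (adjusted p = 0.341 by edgeR) with all libraries and 0.13 without control 19, the lowest heart. The phosphoinositide-binding genes Wipi1 and Wipi2 stood at 0.12 ± 0.12 and 0.10 ± 0.06. Wipi1 was at 45.0 CPM in control 19, against 70.8 in the next lowest control, and its value was 0.05 without that library. The lipid-transfer genes Atg2a and Atg2b stood at 0.02 and 0.03, with a median of about the same CPM in both diets (33.7 and 33.1 with rapamycin, 32.3 and 32.5 in controls).

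The lipidation system gave the largest group, 12 rows of 11 genes, and none passed. It consists of the E1-like enzyme of Atg7, the E2-like enzymes of Atg3 and Atg10, the conjugate of Atg5, Atg12 and Atg16l1 that directs them, and the Atg4 proteases that prepare and recycle ATG8 proteins. Values ran from -0.16 (Atg3) to 0.09 (Atg10), with 4 above 0 and 8 below (all 12 below with library totals alone). The median was -0.05, or -0.01 without control 19. Atg3 had the smallest p: its lowest, median and highest values were 29.7, 34.4 and 36.6 CPM with rapamycin, against 28.6, 35.1 and 62.6 in controls. Atg3 averaged 33.5 ± 2.26 CPM with rapamycin and 37.5 ± 9.35 in controls (SD). The highest control was control 19, and the next was 38.5. The value of -0.16 ± 0.10 (adjusted p = 0.364 by edgeR) was -0.04 without control 19. Control 19 was also the highest control for Atg4c, Atg5 and Atg7. The scaffold Atg16l1 stood at 0.02 ± 0.06 and Atg12 at -0.05 ± 0.06. Atg4b, the main protease of the family, was among the steadiest members, at 28.8 to 32.9 CPM with rapamycin and 28.0 to 31.6 in controls, and stood at 0.03 ± 0.04. The 2 rows of Atg4a stood at -0.05 and -0.07, and they are uncertain, since 63.6% of the 50-base stretches of its transcripts also occur in transcripts of other genes, Atg4a-ps first.

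The ATG8 proteins, which coat the membrane and bind receptors, gave no called gene, and their values lay on both sides of 0. Map1lc3a had 203, 277 and 329 CPM as lowest, median and highest value with rapamycin, against 122, 230.4 and 318 in controls. Here 9 of 10 rapamycin hearts exceeded the control median and control 19 was the lowest, the next control being at 191. Map1lc3a averaged 276.8 ± 39 CPM with rapamycin and 230.4 ± 55.3 in controls (SD). Its value was 0.26 ± 0.13 (adjusted p = 0.228 by edgeR), or 0.20 without control 19. Map1lc3b, the LC3 gene most used as a marker of autophagosomes, spanned 103 to 132 CPM with rapamycin and 87.6 to 133 in controls and stood at 0.09 ± 0.07. Map1lc3b averaged 119.3 ± 10.9 CPM with rapamycin and 112.0 ± 14.9 in controls (SD). Gabarapl1 pointed the other way, with 92.1, 107 and 125 CPM with rapamycin, against 96.6, 121 and 146 in controls. Gabarapl1 averaged 108.0 ± 10.7 CPM with rapamycin and 119.6 ± 16.8 in controls (SD). It stood at -0.15 ± 0.08 (adjusted p = 0.270 by edgeR) and was called lower with library totals alone (-0.27, adjusted p = 0.03883). Gabarap stood at -0.05 ± 0.07 and Gabarapl2 at 0.07 ± 0.07. Gabarapl2 averaged 24.3 ± 2.17 CPM with rapamycin and 23.1 ± 2.56 in controls (SD). Gabarapl2 had 21.5 to 27.4 CPM with rapamycin and 20.2 to 28.2 in controls, and 17.01% of the 50-base stretches of its transcripts recur in other genes, so its counts are uncertain.

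The 3 cargo receptor genes had values above 0 with TMM and 1 did with library totals alone, none called. Nbr1, a receptor for ubiquitinated cargo, had 155.8, 171 and 190.8 CPM as lowest, median and highest value with rapamycin, against 134, 165 and 176 in controls, and 9 of 10 rapamycin hearts exceeded the control median. Nbr1 averaged 172.7 ± 9.72 CPM with rapamycin and 160.3 ± 12.1 in controls (SD). Its value was 0.11 ± 0.05 (adjusted p = 0.219 by edgeR), or 0.09 without control 19, the lowest heart. Sqstm1, which encodes p62, spanned 274 to 433 CPM with rapamycin and 261 to 369 in controls and stood at 0.13 ± 0.09 (adjusted p = 0.384). Optn, a receptor used in mitophagy, stood at 0.09 ± 0.12. In control 19 it was at 47.6 CPM, against 78.9 in the next control, and its value was 0.02 without that library.

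**Figure D3:**
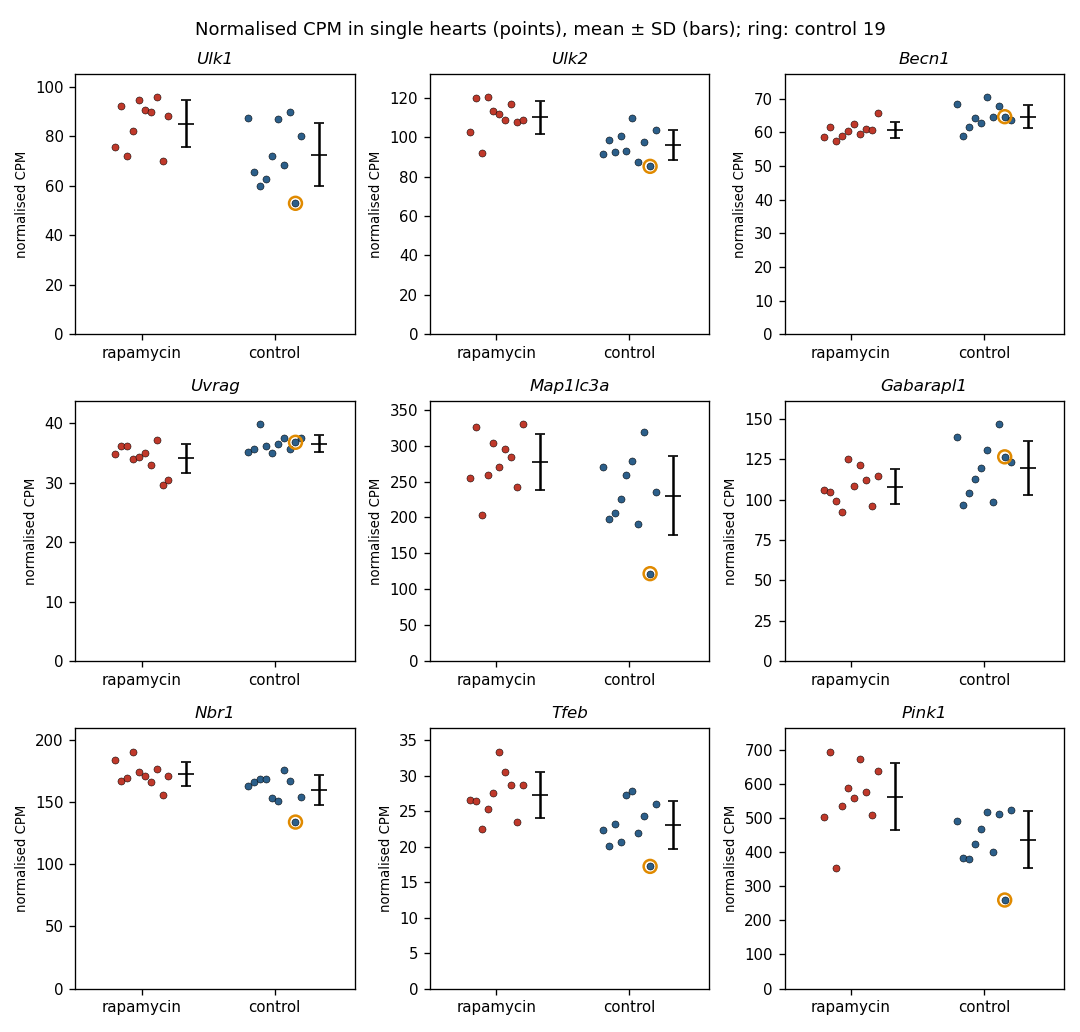
Normalised CPM (y axes, from 0) of 9 members in 10 rapamycin hearts (left) and 10 control hearts (right); points are single hearts, bars the mean ± SD, and the ring marks control 19. The groups overlap in all 9 panels, and with TMM factors control 19 is the lowest heart for Ulk1, Ulk2, Map1lc3a, Nbr1, Tfeb and Pink1.

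Of the lysosome regulators, the related transcription factor genes Tfeb and Tfe3 differed in their ratio between the diets, while neither passed alone. TFEB and TFE3 switch on lysosomal and autophagy genes when they enter the nucleus. Tfeb had 22.5, 27.0 and 33.4 CPM as lowest, median and highest value with rapamycin, against 17.2, 22.8 and 27.8 in controls. It lay above the control median in 9 of 10 rapamycin hearts, and control 19 was the lowest heart. Tfeb averaged 27.4 ± 3.23 CPM with rapamycin and 23.1 ± 3.35 in controls (SD). Its value was 0.24 ± 0.08 (adjusted p = 0.101 by edgeR), or 0.21 without control 19 (adjusted p = 0.129). Tfe3 had 17.3, 18.7 and 26.3 CPM with rapamycin, against 18.04, 20.6 and 22.8 in controls, and stood at -0.08 ± 0.07 (adjusted p = 0.564 by edgeR). The highest heart was rapamycin 9, the next of its group being at 22.1, and without it the value was -0.13 (adjusted p = 0.204 by edgeR). Tfeb was highest in rapamycin 9 too, at 33.4 CPM against 30.5 in the next heart. Without that library Tfeb stood at 0.21 (adjusted p = 0.161 by edgeR). Rapamycin 9 also held 330.0 summed CPM of 5 liver genes, against a median of 2.25 with rapamycin and 1.56 in controls. The part of liver RNA in either gene was not tested. Tfe3 averaged 19.6 ± 2.8 CPM with rapamycin and 20.7 ± 1.52 in controls (SD). The log2 ratio of Tfeb to Tfe3 counts, which no scaling between libraries can change, was 0.48 ± 0.20 with rapamycin and 0.14 ± 0.22 in controls (SD, n = 10 each), a difference of 0.33. It lay above the control median in 9 of 10 rapamycin hearts (2-sided permutation test with 100000 resamples, p = 0.00178, and 0.0107 adjusted over the 6 ratios tested). Without control 19, whose ratio of -0.39 was the lowest, the difference was 0.28 (adjusted permutation p = 0.0217). The ratio shows unequal change of the 2 genes and not which of them changed. Members were chosen with earlier results of these data known, and how often other pairs of genes differ as much was not tested.

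The lysosomal membrane glycoproteins were nearly level. Lamp1 spanned 396 to 486 CPM with rapamycin and 388 to 526 in controls. Lamp2, which also serves in fusion and in chaperone-mediated autophagy, spanned 287 to 367 CPM with rapamycin and 274 to 419 in controls, where control 19 was the highest. Lamp1 averaged 442.8 ± 30.6 CPM with rapamycin and 454.6 ± 52.6 in controls (SD). Lamp2 averaged 312.1 ± 26.4 CPM with rapamycin and 328.8 ± 41.2 in controls (SD). They stood at -0.04 ± 0.07 and -0.08 ± 0.07, or -0.01 and -0.02 without control 19. Their 95% intervals spanned folds of 0.885 to 1.07 and 0.858 to 1.05.

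Pink1 had the largest value of the list. PINK1 is the kinase that gathers on depolarised mitochondria and recruits the ubiquitin ligase parkin, the product of Park2. Pink1 had 353, 567 and 694 CPM as lowest, median and highest value with rapamycin, against 259, 445 and 522 in controls. In 7 of 10 rapamycin hearts it lay above every control, and the 2 low hearts were rapamycin 5 and control 19. The mean was 562 ± 98.1 CPM with rapamycin and 435 ± 83.7 in controls (SD, n = 10 each). The log2 fold change of 0.37 ± 0.12 was a fold of 1.29 (95% interval 1.09 to 1.54) and did not pass (adjusted p = 0.0856 by edgeR, 0.0402 by DESeq2). Without control 19 it was 0.31 (adjusted p = 0.0888 by edgeR), and without rapamycin 5 it passed at 0.43 (0.0267). The value with library totals alone was 0.25 (0.0998). Rapamycin 5 had the highest macrophage (1160 CPM), fibroblast (3330) and endothelial (1640) marker sums of its group, and its TMM factor of 1.06 was the highest of its group. Over the groups, the 14 cardiomyocyte markers all had values above 0, with a median of 0.29 (0.21 without control 19, 0.18 with library totals alone). With all libraries 7 were at an unadjusted p under 0.05, and edgeR called none of the 14 and DESeq2 called 1. The part of these in Pink1's value was not tested.

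Park2 spanned 23.8 to 36.1 CPM with rapamycin (median 30.1) and 19.9 to 31.9 in controls (median 27.6), with control 19 the lowest, and stood at 0.15 ± 0.09 (adjusted p = 0.315 by edgeR). Fundc1, a receptor in the outer mitochondrial membrane that acts in hypoxia, lay above the control median of 35.1 CPM in all 10 rapamycin hearts, yet the highest value was 46.4 with rapamycin and 47.3 in controls. That control was control 19, the next being at 44.7, and the value of 0.05 ± 0.07 was 0.10 without it. Bnip3, another receptor of the outer membrane and a target of hypoxia and forkhead factors, had 136, 162 and 189 CPM as lowest, median and highest value with rapamycin, against 110, 148 and 205 in controls, and stood at 0.04 ± 0.10. Bnip3 averaged 159.9 ± 17.7 CPM with rapamycin and 155.3 ± 33 in controls (SD). Of the 50-base stretches of its transcripts 46.3% recur in other genes, so its counts are uncertain.

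Bnip3l, the related receptor NIX that clears mitochondria from maturing red cells, stood at -0.12 ± 0.12 with all libraries and -0.02 without control 19. It had 63.2, 71.1 and 85.3 CPM as lowest, median and highest value with rapamycin, against 62.8, 69.7 and 127.5 in controls. Bnip3l averaged 73.1 ± 7.48 CPM with rapamycin and 79.8 ± 22.3 in controls (SD). The 2 high hearts were control 19 at 127.5 and control 17 at 113, and the next control reached 80.9. The same 2 libraries had the highest summed CPM of 5 erythroid genes, all detected (3650 in control 17 and 2270 in control 19). That sum was 112 to 941 with rapamycin and 74.5 to 3650 in controls. The part of erythroid RNA in Bnip3l was not tested, and 24.4% of its 50-base stretches recur in a pseudogene, Bnip3l-ps. The median log2 fold change of the 5 mitophagy genes was 0.05 (0.10 without control 19, -0.07 with library totals alone).

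The other 5 ratios of related members did not pass after adjustment over the 6. The log2 ratio of Map1lc3a to Map1lc3b was 1.21 ± 0.12 with rapamycin and 1.01 ± 0.35 in controls (adjusted permutation p = 0.0994), and 0.03 in control 19. Without that heart the difference was 0.09 and not 0.20. Gabarapl1 to Gabarapl2 was 2.15 ± 0.17 with rapamycin and 2.36 ± 0.23 in controls (adjusted permutation p = 0.0968), with 1 of 10 rapamycin hearts above the control median. Bnip3 to Bnip3l was 1.13 ± 0.16 with rapamycin and 0.97 ± 0.38 in controls, with a difference of 0.15 that was 0.06 without control 19. Ulk1 to Ulk2 and Lamp1 to Lamp2 differed by 0.04 each (adjusted permutation p = 0.710 for both).

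**Figure D4:**
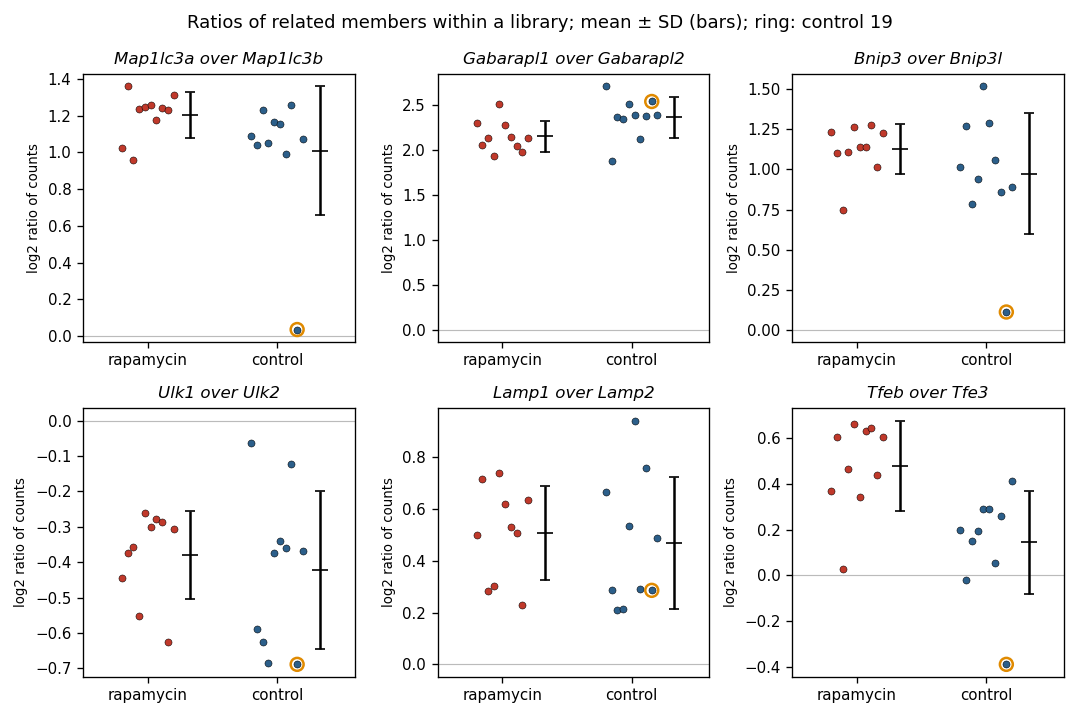
Log2 ratios of the counts of 2 related members within a library (y axes, each with its own range) in 10 rapamycin hearts (left) and 10 control hearts (right), with mean ± SD; the ring marks control 19. Tfeb over Tfe3 averages 0.48 with rapamycin and 0.14 in controls, and control 19 is the lowest heart in 4 of the 6 panels.

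Spread between hearts was larger in controls for most members. The coefficient of variation of normalised CPM was larger in controls than with rapamycin for 34 of the 42 rows, and for 27 without control 19. Whether this is particular to the members was not tested, as no share of all genes is given. Its median was 9.45% with rapamycin and 13.2% in controls (11.2% without control 19), and it reached 17.5% for Pink1 with rapamycin and 28.0% for Bnip3l in controls. In normalised CPM, which its TMM factor of 1.225 lowers, control 19 was the lowest control for 18 rows and the highest for 9. Control 17 was the highest control for 11 rows, among them Ulk1, Atg13, Atg9a, Atg4d, Map1lc3a, Map1lc3b, Gabarapl1 and Bnip3, which belong to 5 different steps. With rapamycin, hearts 5 and 15 were each the lowest for 11 rows.

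**Figure D5:**
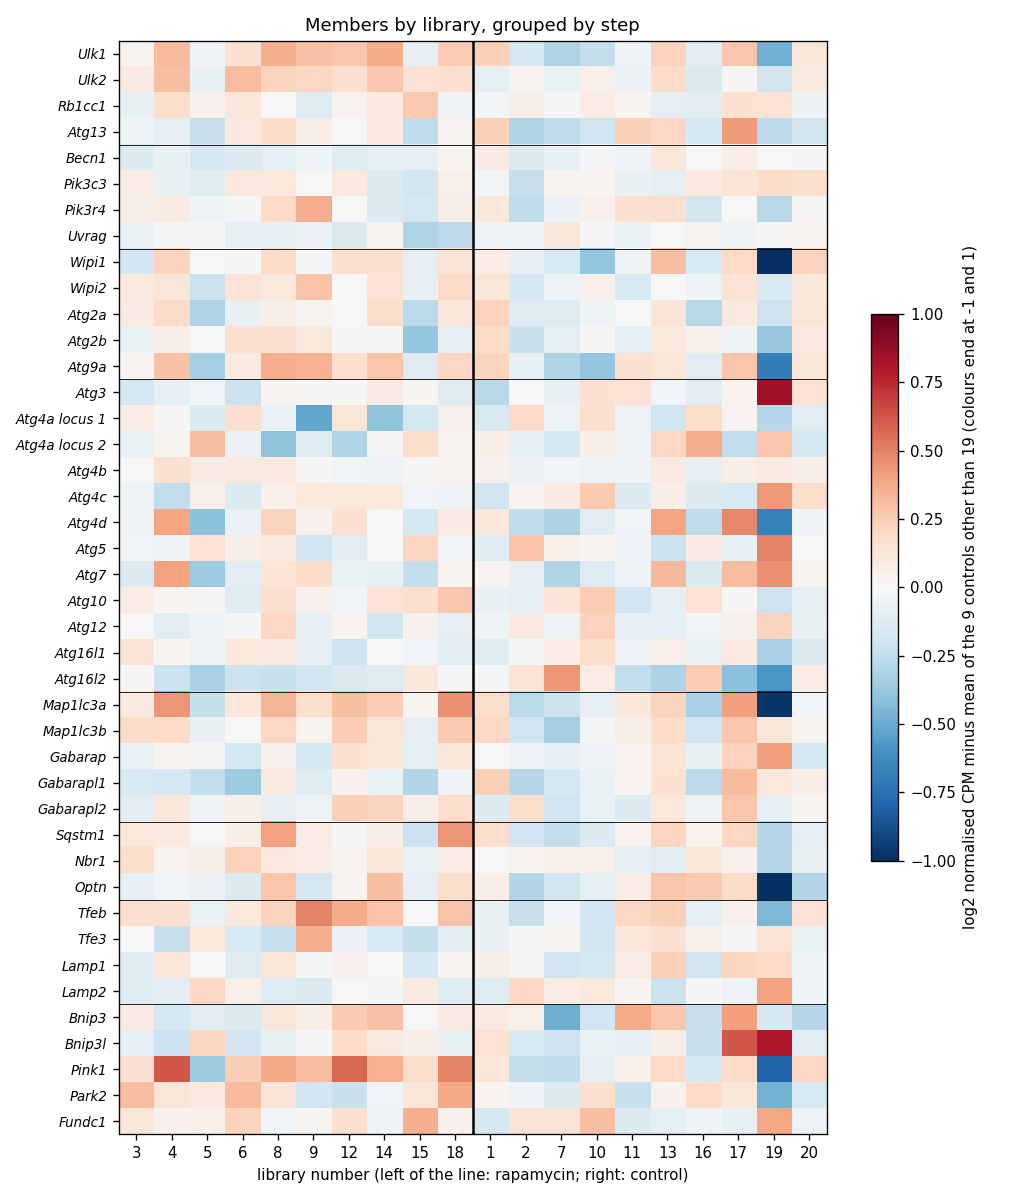
Log2 normalised CPM of the 42 rows, less the mean of the 9 controls other than control 19, in 10 rapamycin libraries (left of the line) and 10 control libraries (right); thin lines part the steps and colours end at -1 and 1. The column of control 19 holds the strongest blue (Wipi1, Map1lc3a, Optn, Pink1) and red (Atg3, Bnip3l), and the row of Pink1 is red in 9 of the 10 rapamycin columns.

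Genes of the same route outside the list gave no call in edgeR with TMM: none of 89 further rows passed, where 3.36% of all genes did. DESeq2 called 7 of them, 3 higher and 4 lower, where it called 2.02% of all genes higher and 4.27% lower. The 2 of smallest p in each group are named here, or 1 for the lysosomal hydrolases. Among 14 other initiation and phagophore genes, Bcl2, which binds Beclin-1 and restrains it, stood at -0.55 ± 0.16 (adjusted p = 0.0553 by edgeR), or -0.55 without control 19 (0.0633), and was called by DESeq2 (0.0273). Lymphocyte markers lay lower beside it: the 10 of T and NK cells summed to 5.93 to 30.2 CPM with rapamycin and 16.5 to 113 in controls, and the 8 of B and plasma cells to 28.6 to 102 with rapamycin and 27.8 to 587 in controls. All 7 tested T and NK markers (median -1.60) and all 8 B and plasma markers (median -1.88) had values below 0. Of these edgeR called 2 and 0, while DESeq2 called 6 of 10 and 1 of 8. No marker of either list was at 0 in all libraries, and their part in Bcl2 was not tested. Trp53inp1 stood at -0.49 ± 0.17 and at -0.29 without control 19. Of 13 genes for fusion and transport, Snap29, a SNARE of autophagosome fusion, stood at -0.20 ± 0.06 (0.0742) and Tecpr1 at -0.22 ± 0.08 (0.125). Of 15 other genes of selective autophagy 12 lay above 0 (7 with library totals alone). They were led by Retreg1, a receptor for the endoplasmic reticulum that the table lists as Fam134b (0.32 ± 0.10, adjusted p = 0.0755 by edgeR), and by Calcoco1 (0.27 ± 0.09, 0.0903). DESeq2 called both (adjusted p = 0.0328 for Retreg1 and 0.0457 for Calcoco1). Of 10 other regulators of lysosomal genes, Mitf, a relative of Tfeb, stood at 0.21 ± 0.08 (0.148) and Flcn at 0.15 ± 0.07 (0.191).

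Lysosomal hydrolases and membrane proteins mostly had values below 0, with no gene past the threshold (6 of 20 were called lower with library totals alone, where 9.21% of all genes were). Of 20 genes 15 were below 0 (17 with library totals alone), and the median was -0.16. An unadjusted p under 0.05 was reached by 9 on the lower side and 3 on the higher, against 13.5% and 8.21% of all genes. With library totals alone 13 and 0 of the 20 reached it, where 19.1% of all genes lay above 0. The share of all genes at that p is not given for that scaling. The 3 on the higher side with TMM were Npc1, a cholesterol transporter of the lysosomal membrane (0.23 ± 0.09), Scarb2 (0.16 ± 0.06) and Laptm4a (0.09 ± 0.04). Npc2 had the lowest value of the 20, -0.70 ± 0.26 (adjusted p = 0.122 by edgeR, 0.0341 by DESeq2). Without control 19 Npc2 stood at -0.25 with a smaller SE of 0.07 (adjusted p = 0.0604 by edgeR). DESeq2 called 1 of the 20 higher, Laptm4a (adjusted p = 0.0182), and 3 lower. Lipa, the lysosomal acid lipase, stood at -0.27 ± 0.08 (adjusted p = 0.0610 by edgeR, 0.0325 by DESeq2). Without control 19 it stood at -0.23, and an unadjusted p under 0.05 was reached by 5 of the 20 genes on the lower side and 3 on the higher. For the fit without control 19 the share of all genes at that p is not given, here or for the proton pump below. Macrophages are rich in lysosomes, and the summed macrophage markers lay at a median of 633 CPM with rapamycin and 1120 in controls. All 14 macrophage markers had values below 0, with a median of -0.62 (-0.60 without control 19). With all libraries edgeR called 10 of the 14 lower, where it called 2.68% of all genes lower. DESeq2 called 12 lower, where it called 4.27% of all genes lower. The part of macrophages in the values of the lysosomal genes was not tested. The 17 rows of the proton pump of lysosomes, the V-ATPase, had a median of -0.03 (-0.0001 without control 19), with 4 at an unadjusted p under 0.05 on the lower side and 1 without control 19. They include Atp6v1a at -0.41 ± 0.15 (adjusted p = 0.112 by edgeR) and at -0.22 ± 0.07 without control 19 (0.0802). Atp6ap2, another of them, stood at -0.26 ± 0.11 (adjusted p = 0.188 by edgeR) and at -0.12 ± 0.06 without it (0.261). The authors' deposited table lists Bcl2, Retreg1 and Lipa among its 700 genes.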

How the data were processed

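RNA-seq of polyadenylated RNA from 20 hearts, 10 per diet, was analysed from 2 deposited tables. The authors deposited whole-number read counts per gene for 34291 rows. They also deposited CPM, each count over its library's total with no scaling factor, for 700 genes chosen by a rule not given in the sources used here. Per the labels, paired 50-base reads were placed at unique sites of MGSCv37 with at most 2 mismatches, so genes with near-identical copies can lose reads. The submitters' processing notes name edgeR. Columns were matched to samples by title. Counts were tested with edgeR 4.0.16 (R 4.3.3): filterByExpr, TMM factors, quasi-likelihood test with Benjamini-Hochberg adjustment at 0.05 over 13940 genes, rapamycin over control, with no covariate. Normalised CPM uses the TMM factors. Alternatives were RLE factors, no filter, DESeq2 1.42.0, each library left out, the 4 libraries with lung transcripts left out and, chosen after seeing the data, library totals without factors. Ratios of 6 pairs used log2 counts plus 0.5 and a permutation test (scipy 1.17.1). The test script was checked on simulated data. The labels do not say more about the source of each library than its heart. The smallest chi-square per degree of freedom among the 90 pairs within groups was 5.72, so no 2 libraries agreed within sampling noise. Members and lists were chosen with earlier results of these data known. Full values are given for members past the threshold, the member of smallest p in each step and the genes of the ratios, and the 2 genes of smallest p in each further list are named, except 1 result that is not reported here; others were named after their values were seen. Lengths, overlaps and shared 50-base stretches come from GENCODE annotation of GRCm38, and Tfeb and Tfe3 were found under older symbols. Some genes overlap one on the other strand (Becn1, Atg9a, Gabarapl1, Sqstm1 and Lamp1 among them), and whether counting used strand is not given in the sources used here.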

Additional observations from a re-analysis of the deposited data

Results flagged for a closer look

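Of 84 tests for a single heart far from the rest of its group, 7 passed, and chance gives about 1 in 20. Each took the heart's gap to the nearest heart as a share of the group's range, with Dixon's limit for 10 hearts. The shares were computed on log2 normalised CPM, while the values printed beside them are not in log2. Shares of the printed values differ, and whether they pass was not tested. With rapamycin, Pink1 was lowest in heart 5, at 353.3 CPM against 502.9 in the next (gap share 0.523), and Atg2b was lowest in heart 15, at 25 CPM against 30.8 (0.540). The other 5 were all control 19. In that heart Pink1 was lowest at 259.3 CPM against 378.2 (0.540), Map1lc3a lowest at 121.9 against 191.1 (0.468), Optn lowest at 47.6 against 78.9 (0.559) and Wipi1 lowest at 45.0 against 70.8 (0.488). Atg3 was highest there, at 62.6 CPM against 38.5 (0.619).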

How the results depend on the processing

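Members called higher numbered 1, but 0 without the filter, 0 without the 4 libraries with lung transcripts, 0 with library totals alone and 2 with DESeq2. Leaving out 1 library gave 0 to 2. Members called lower numbered 0, but 3 with library totals alone. All genes called numbered 469, but 1033 with DESeq2, 280 without the 4 libraries and 1332 with library totals alone, and 165 to 791 with 1 library left out. With library totals alone the step medians were -0.0084 for initiation, -0.19 for the lipid kinase complex, -0.18 for lipidation, -0.18 for lysosome regulators and -0.0734 for mitophagy. The ratio differences ranged from 0.0878 to 0.2239 for Map1lc3a over Map1lc3b and from -0.2647 to -0.1722 for Gabarapl1 over Gabarapl2 with 1 library left out, and passed in 1 and 2 of those fits. The cause was not tested. Signs turned mostly for values near 0. Atg13 stood at 0.0113 without the filter, 0.0040 with DESeq2 and 0.0049 without the 4 libraries, where Pik3c3 stood at 0.0355, Atg7 at 0.0129, Atg16l1 at -0.0392 and Lamp1 at 0.0064. With library totals alone, below 0 were Rb1cc1 (-0.0909), Pik3r4 (-0.0502), Wipi2 (-0.0277), Atg2a (-0.1014), Atg2b (-0.0838), Atg4b (-0.0949), Atg4d (-0.0450), Atg10 (-0.0286), Atg16l1 (-0.1028), Map1lc3b (-0.0333), Gabarapl2 (-0.0541), Nbr1 (-0.0140), Optn (-0.0201), Bnip3 (-0.0734) and Fundc1 (-0.0816). With 1 library left out, Atg13 ranged from -0.0319 to 0.0523, Atg16l1 from -0.0058 to 0.0414, Atg2a from -0.0049 to 0.0532, Atg5 from -0.0766 to 0.0143 and Bnip3 from -0.0014 to 0.0972. No paired analysis was possible because each library number occurs in 1 group only.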
